A study of Mus musculus with 9 samples.

Results

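The comparison described here is between livers of Clock mutant mice that received a plasmid for wild-type Clock and livers of Clock mutant mice that did not. It was defined by sample title, with 3 rescue arrays set against 3 mutant arrays, 6 of the 9 arrays of the series. The other 3 arrays are from wild-type mice and are given as a reference level. All 19938 genes with a probe set that carries exactly 1 gene symbol were compared, each through its brightest probe set.

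Wild-type mice were C57BL/6J. Mutant mice carried Clock-D19, a splice mutation that leaves CLOCK able to pair with BMAL1 and poor at activating genes. Rescue mice were mutants of the same kind that received 35 µg of plasmid (pLIVE vector, made for expression in liver) by hydrodynamic injection into the tail vein at week 10. Hydrodynamic delivery reaches mainly hepatocytes. All 3 groups ate a diet with 45% fat for 5 weeks from 10 weeks of age and were killed at zeitgeber hour 10, late in the light phase. A control injection of the mutant and wild-type mice is not described in the labels, so the supply of Clock cannot be told apart from the injection and the vector in any value below. The labels do not give the sex of the mice or say whether livers were pooled, so the p-values measure the spread between these samples.

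CLOCK and BMAL1 bind E-box sequences and switch on genes that include their own repressors, among them the Per and Cry genes and Nr1d1, which encodes REV-ERBα. REV-ERBα in turn represses Arntl, Nfil3 and metabolic genes. In liver this loop drives daily rhythms in the synthesis of bile acids and heme, in detoxification and in the handling of glucose and lipid.

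Hepatocyte markers were compared first, which does not test the labelled tissue. None of 16 was called between rescue and mutant, with differences from -0.49 to 0.81. Their average log2 level was 11.91 to 12.05 on the mutant arrays and 11.83 to 12.03 on the rescue arrays. Values here are log2 RMA levels, on which a difference of 1 is a 2-fold change. Such a level cannot be compared between genes. A gene was called when its limma p, adjusted by Benjamini-Hochberg over all genes, was under 0.05. Errors are the model's SE, with n = 3 per group throughout. Whole liver was measured, so fewer cells of a type and less RNA per cell cannot be told apart.

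Of the 19938 genes, 759 (3.81%) differed between rescue and mutant livers. There were 520 genes that rose (2.61%) and 239 that fell (1.2%), with a median size of 0.53 in each direction (-0.53 for the falls). The median difference of all genes was -0.053, and after median centring of the arrays 780 rose and 126 fell. Only 42 genes (0.211%) passed and also changed at least 2-fold, 35 up and 7 down. The rescue and mutant values of 754 of the 759 did not overlap, against 5132 (25.7%) of all genes.

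The number of calls changed when single arrays were left out. Without mutant array 1, 2 or 3 it was 200, 323 or 340, and without rescue array 2 or 3 it was 202 or 201, whereas without rescue array 1 it was 546. With all 35556 probe sets in 1 fit, a setting added after the data were seen, 88 genes were called in place of 759. In all 9 fits that leave out 1 array 118 genes were called (88 up, 30 down), among them 36 of the 42 that changed 2-fold. For a gene below without such a remark, the call was made in all 9 of those fits.

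**Figure D1:**
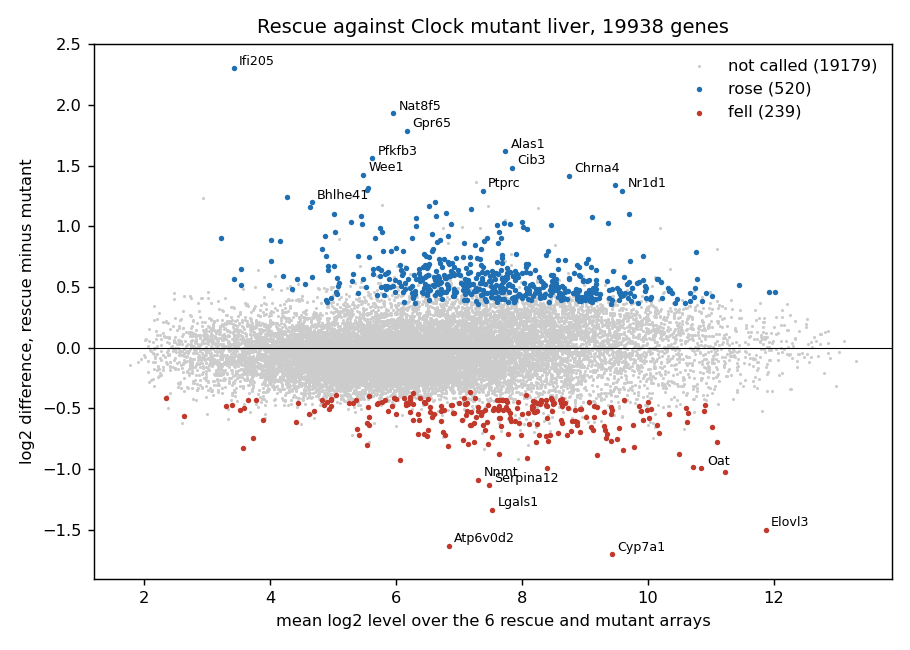
Each point is 1 gene; the horizontal axis is its mean log2 level over the 6 rescue and mutant arrays and the vertical axis the log2 difference, rescue minus mutant. The 520 genes that rose are blue, the 239 that fell red, and the others grey; Ifi205 has the largest rise (2.30) and Cyp7a1 the largest fall (-1.71).

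Clock was measured first. Its level was 10.88, 9.89 and 10.55 in mutant, 10.33, 9.41 and 9.62 in rescue and 9.97, 9.24 and 9.30 in wild-type livers. The rescue and mutant values overlapped, and the difference of -0.66 ± 0.26 was not called (adjusted p = 0.168). The probe set was not used to separate the mutant transcript from that of the plasmid, so this value does not measure delivery.

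Among genes that CLOCK and BMAL1 activate, a few rose strongly and most showed no call. Of 21 measured members of the list 5 rose and none fell (23.8% and 0%, against 2.61% and 1.2% of all genes). The list median was 0.11, and that of all genes -0.053. Of those 5, 4 were called in every fit without 1 array. Alas1, which encodes the first and rate-limiting enzyme of heme synthesis, stood at 7.23, 6.76 and 6.79 in mutant, 8.41, 8.44 and 8.79 in rescue and 7.63, 7.99 and 7.90 in wild-type livers. Every rescue value was above every other value, the rise over mutant was 1.62 ± 0.15 (adjusted p = 0.000137), and rescue was also above wild type (0.71, adjusted p = 0.021).

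Pfkfb3 makes and degrades fructose 2,6-bisphosphate, the activator of glycolysis. It was at 4.85, 4.97 and 4.71 in mutant, 6.10, 6.79 and 6.32 in rescue and 4.37, 4.87 and 4.93 in wild-type livers. The rise of 1.56 ± 0.17 (adjusted p = 0.000566) took it to 1.68 above wild type (adjusted p = 0.000112), while mutant and wild type overlapped. Wee1, a kinase that delays entry into mitosis, rose by 1.42 ± 0.18 (adjusted p = 0.00113), from 4.53 to 4.98 in mutant to 6.02 to 6.38 in rescue.

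The repressors of the loop did not move alike. Nr1d1 was at 8.88, 9.0 and 8.95 in mutant, 10.15, 9.92 and 10.64 in rescue and 9.97, 10.30 and 8.96 in wild-type livers. Its rise of 1.29 ± 0.26 (adjusted p = 0.0167) was not called without mutant array 1 or rescue array 3 (1.09 to 1.45 over the 9 fits, adjusted p up to 0.0723), nor with a trended and robust prior (0.0937). With all probe sets in 1 fit, Nr1d1 (adjusted p = 0.0855), Bhlhe41 (0.0556), Chrna4 and Cyp2b9 (both 0.0536) were not called. Bhlhe41, a repressor that competes for E-boxes, rose by a measured 1.20 ± 0.20 (adjusted p = 0.00824) to 4.97, 5.04 and 5.77, well under the wild-type values of 7.39, 7.23 and 6.92. Olfactory receptor genes had medians of 4.25 to 4.33 on the mutant arrays, above the mutant mean of Bhlhe41 (4.07), so the size of its rise is uncertain.

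For the 16 other members, 95% intervals bound what could have been missed. The differences of the period genes were -0.07 (-0.35 to 0.20) for Per1, 0.10 (-0.19 to 0.38) for Per2 and -0.14 (-0.49 to 0.22) for Per3. The deubiquitinase gene Usp2 was at 0.01 (-0.30 to 0.32) and Nampt, of NAD salvage, at 0.08 (-0.21 to 0.36). The output factors Dbp, Tef and Hlf were at 0.12 (-0.17 to 0.42), -0.18 (-0.44 to 0.08) and 0.11 (-0.11 to 0.33). Mutant minus wild type was -1.70 for Per3, -1.80 for Usp2, -1.51 for Nampt, -1.09 for Dbp and -0.71 for Hlf, and none of their upper limits reaches that size. Mutant against wild type called 15.4% of all genes.

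The remaining members spread between these. Nr1d2, the second REV-ERB gene, was 0.39 ± 0.17 higher without passing (adjusted p = 0.196), and the glycogen synthase gene Gys2 0.48 ± 0.15 (adjusted p = 0.0843). Cry1 was at -0.38 ± 0.16 and Lonrf3 at -0.22 ± 0.11. Ciart, Tspan4, Bhlhe40 and Cry2 lay between -0.11 and 0.18. None of these 8 passed.

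**Figure D2:**
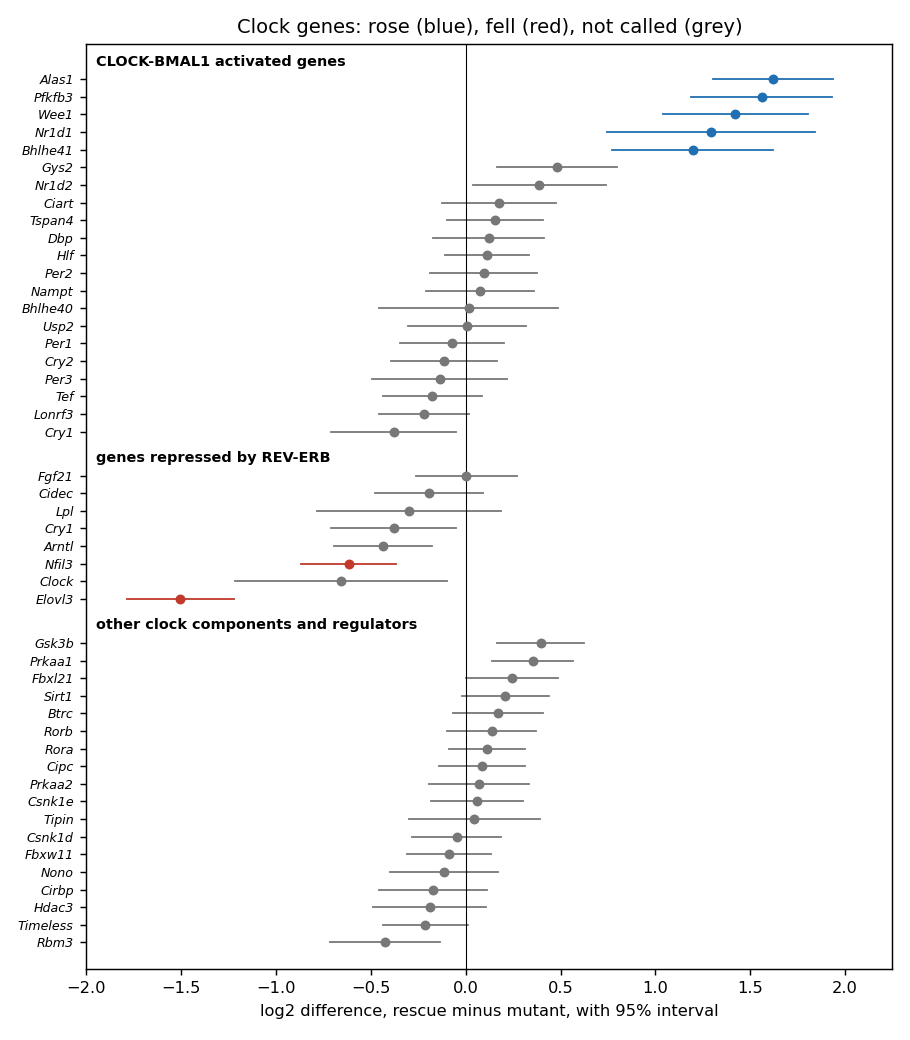
The log2 difference, rescue minus mutant, of each measured clock gene in the 3 lists is drawn as a point with its 95% interval. Alas1, Pfkfb3, Wee1, Nr1d1 and Bhlhe41 (blue) lie between 1.20 and 1.62, Elovl3 and Nfil3 (red) below 0, and the genes that were not called (grey) mostly cross 0.

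E-boxes near the start were found in members that rose and in members that did not pass. The motif searched was CACGTG, which reads the same on both strands, in RefSeq windows from 250 bases before to 50 bases after each start (GRCm38.p6). It was present for 8 of the 17 members that have a window (47.1%), against 9.5% of all tested genes with a window, 9.33% of those that rose, 9.09% of those that fell and 7.15% of all windows. Of the 8 members with the motif, 2 rose, Bhlhe41 and Pfkfb3 (at 1 of its 2 starts), and 6 did not pass (Ciart, Per1, Cry1, Lonrf3, Tef and Tspan4). The windows of Bhlhe41, Pfkfb3, Ciart and Per1 are printed so that both outcomes can be seen beside the letters, with CACGTG in capitals. Bhlhe41 (chr6:145865371-145865670, minus strand) has it at -153 from the start, Pfkfb3 (chr2:11502041-11502340, minus strand) at -53, Ciart (chr3:95882179-95882478, minus strand) at -116, -58 and -44, and Per1 (chr11:69098699-69098998, plus strand, 1 of 2 starts) at -166.
Bhlhe41: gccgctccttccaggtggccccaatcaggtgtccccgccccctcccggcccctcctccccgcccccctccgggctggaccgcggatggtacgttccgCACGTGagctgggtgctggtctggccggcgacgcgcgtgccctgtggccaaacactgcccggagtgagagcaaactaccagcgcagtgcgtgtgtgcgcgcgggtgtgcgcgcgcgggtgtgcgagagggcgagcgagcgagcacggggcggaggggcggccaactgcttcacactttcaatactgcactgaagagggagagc
Pfkfb3: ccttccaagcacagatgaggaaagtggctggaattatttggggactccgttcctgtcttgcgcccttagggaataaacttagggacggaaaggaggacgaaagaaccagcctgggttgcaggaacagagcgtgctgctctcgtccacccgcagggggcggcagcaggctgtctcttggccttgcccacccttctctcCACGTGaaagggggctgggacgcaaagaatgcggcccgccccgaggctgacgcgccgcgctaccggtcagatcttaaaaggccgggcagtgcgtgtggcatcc
Ciart: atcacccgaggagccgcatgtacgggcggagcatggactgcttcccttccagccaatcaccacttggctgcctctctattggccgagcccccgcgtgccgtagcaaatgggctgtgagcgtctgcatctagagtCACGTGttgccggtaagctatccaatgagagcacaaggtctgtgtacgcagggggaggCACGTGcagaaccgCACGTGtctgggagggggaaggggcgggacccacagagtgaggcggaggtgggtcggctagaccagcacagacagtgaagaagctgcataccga
Per1: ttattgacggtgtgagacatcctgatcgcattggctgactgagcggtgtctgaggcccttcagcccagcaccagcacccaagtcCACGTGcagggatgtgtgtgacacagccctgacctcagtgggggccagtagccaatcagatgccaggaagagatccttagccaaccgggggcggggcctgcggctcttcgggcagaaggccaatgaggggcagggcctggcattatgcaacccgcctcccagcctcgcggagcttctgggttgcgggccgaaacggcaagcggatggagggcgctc

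The windows of Alas1 and Nr1d1, which rose, hold no CACGTG. No match says only that these letters are not in the window. The D-box TTATGTAA, searched on both strands, was in 0.957% of windowed genes that rose and 0.999% of all tested ones.

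Of 8 genes that REV-ERB represses, a list that holds Clock itself and shares Cry1 with the previous one, 2 fell and none rose, with a median of -0.41. Elovl3, which elongates very long fatty acids, was at 12.57, 12.67 and 12.61 in mutant, 11.20, 11.08 and 11.06 in rescue and 10.67, 11.21 and 10.71 in wild-type livers. The 3 rescue values lay within the range of the wild-type values, and the fall was -1.50 ± 0.13 (adjusted p = 0.000137). Nfil3, a repressor of D-box genes, fell by 0.62 ± 0.12 (adjusted p = 0.0138) from 9.03 to 9.29 in mutant to 8.42 to 8.76 in rescue, with wild type at 7.59 to 7.76. That call was lost without mutant array 1 or rescue array 2 or 3 (-0.71 to -0.54 over the 9 fits, adjusted p up to 0.063).

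Arntl, which encodes BMAL1, had all 3 rescue values (7.37, 7.34 and 7.48) below all mutant values (7.84, 7.88 and 7.78) without a call (adjusted p = 0.0583). Lpl, Cidec and Fgf21 were at -0.30, -0.19 and 0.00 and did not pass. Of 18 other clock components none was called. The kinase genes Gsk3b (0.40, adjusted p = 0.0533) and Prkaa1 (0.35, adjusted p = 0.0625) and the cold-inducible Rbm3 (-0.42, adjusted p = 0.0939) had the smallest p among them. Their other 15 members, which include Rora, Sirt1, Csnk1d, Csnk1e and Timeless, lay between -0.21 and 0.24.

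Among called genes without overlap, predicted genes and olfactory and vomeronasal receptors left out, the 15 largest rises ran from 2.30 for Ifi205 to 1.20 for Bhlhe41, and 5 of them are the clock genes Alas1, Pfkfb3, Wee1, Nr1d1 and Bhlhe41 given above. Ifi205, an interferon-inducible gene of the DNA-sensing PYHIN family, was at 1.93, 2.68 and 2.20 in mutant, 4.64, 4.71 and 4.37 in rescue and 4.19, 4.35 and 5.09 in wild-type livers. Its difference was the largest of these (2.30 ± 0.21, adjusted p = 0.000137), although its mutant level is dimmer than the olfactory receptor median and the size is therefore uncertain. Nat8f5, of a family of N-acetyltransferases, rose by 1.93 ± 0.26 (adjusted p = 0.00217), to 6.23 to 7.42 from 4.53 to 5.35. Ces1g, a carboxylesterase that hydrolyses triglyceride, rose by 1.34 ± 0.20 (adjusted p = 0.00443), to 9.98, 10.05 and 10.38, between the mutant values (8.55 to 8.97) and most wild-type values (10.31 to 11.31).

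Other large rises passed the wild-type level. Gpr65, a receptor that senses protons and is known from immune cells, was at 5.20, 5.48 and 5.14 in mutant, 7.2, 6.61 and 7.37 in rescue and 5.47, 5.54 and 5.39 in wild-type livers. All rescue values exceeded the others by more than 1, and the rise over mutant was 1.79 ± 0.16 (adjusted p = 0.000137). Chrna4, a nicotinic acetylcholine receptor subunit, was at 8.25, 8.07 and 7.79 in mutant and 10.16, 9.11 and 9.09 in rescue (1.42 ± 0.23, adjusted p = 0.00684), against 7.48, 7.58 and 7.84 in wild type.

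The same order held for 3 further genes of this group. Cib3, of the calcium- and integrin-binding family, rose by 1.48 ± 0.21 (adjusted p = 0.00311). The efflux pump gene Abcb1a rose by 1.30 ± 0.15 (adjusted p = 0.000796) and Ptprc, the pan-leukocyte antigen CD45, by 1.29 ± 0.13 (adjusted p = 0.000344). Rescue was above wild type by 1.41 for Cib3, 0.99 for Abcb1a and 1.21 for Ptprc, each called (adjusted p = 0.0025, 0.0028 and 0.00027), while none of the 3 was called between mutant and wild type (-0.07, -0.30 and -0.09). Lilr4b, an inhibitory receptor of leukocytes, rose by 1.20 ± 0.15 (adjusted p = 0.00127), to 7.32, 7.21 and 7.16, and in wild type was at 7.36 to 8.01. Cyp2b9, a P450 that is more abundant in female liver, rose by 1.32 ± 0.21 (adjusted p = 0.00684), to 5.98 to 6.37 from 4.79 to 5.07.

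**Figure D3:**
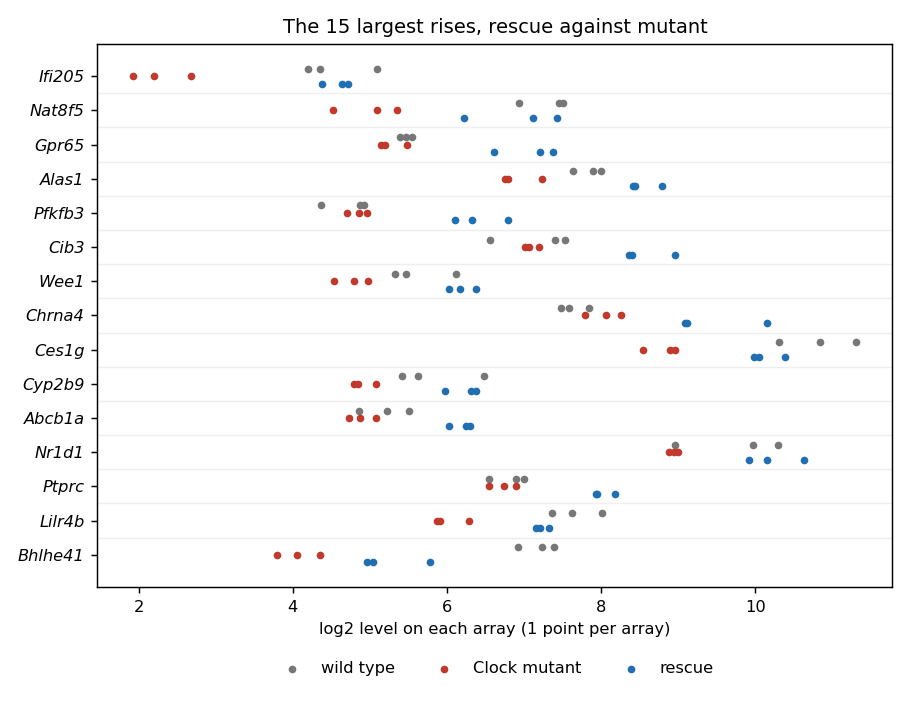
Log2 level on each array (1 point per array) for the 15 genes with the largest rises among called genes without overlap, from Ifi205 at the top to Bhlhe41. Blue rescue points lie right of red mutant points in each row; for Gpr65, Alas1, Pfkfb3, Cib3, Chrna4, Abcb1a and Ptprc they also lie right of the grey wild-type points.

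By the same rule, the 15 largest falls ran from -1.71 for Cyp7a1 to -0.88 for Lhpp. Cyp7a1, the rate-limiting enzyme of bile acid synthesis, was at 10.42, 10.18 and 10.22 in mutant, 8.95, 7.61 and 9.15 in rescue and 10.74 ± 0.24 (SD, n = 3) in wild-type livers. All rescue values were below all others, with rescue array 2 lowest, and the fall was -1.71 ± 0.28 (adjusted p = 0.00824). Rescue also differed from wild type by -2.17 (adjusted p = 0.00092), in a comparison that called 454 genes (2.28% of all), and mutant was not called against wild type (-0.47). Neither Cyp7a1 nor Atp6v0d2 was called with a trended and robust prior (adjusted p = 0.0662 and 0.0542). With all probe sets in 1 fit, these 2, Rpph1, Oat and Moxd1 were not called (adjusted p from 0.0556 to 0.0568).

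Atp6v0d2, a subunit of the vacuolar proton pump, was at 7.41, 7.74 and 7.80 in mutant, 6.65, 5.21 and 6.19 in rescue and 7.50, 6.80 and 7.28 in wild type, a fall of -1.64 ± 0.27 (adjusted p = 0.00824). Lgals1, which encodes galectin-1, was at 8.60, 7.70 and 8.29 in mutant, 6.91, 6.70 and 6.97 in rescue and 6.85, 6.99 and 7.05 in wild type. Rescue and wild-type values of Lgals1 overlapped, and its fall from mutant was -1.34 ± 0.17 (adjusted p = 0.00149). Serpina12, the adipokine vaspin, fell by 1.14 ± 0.13 (adjusted p = 0.000599), to 6.83 to 7.01 from 7.96 to 8.10, with wild type at 6.82 to 7.33.

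Nnmt, which methylates nicotinamide and so takes it out of NAD salvage, was at 8.06, 7.54 and 7.97 in mutant, 7.04, 6.41 and 6.84 in rescue and 7.79, 7.6 and 7.52 in wild type. It fell by 1.09 ± 0.16 (adjusted p = 0.00443) to a level under both other groups (rescue against wild type -0.87, adjusted p = 0.011). Rpph1, the RNA of RNase P, fell by 1.03 ± 0.17 (adjusted p = 0.00839) from 11.37, 11.92 and 11.89 to 10.82, 10.60 and 10.69, and stayed above wild type (9.13 to 9.81). Moxd1, a monooxygenase gene, fell by 0.93 ± 0.16 (adjusted p = 0.00912), to 5.31 to 5.83.

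The last 5 falls of this group were not called in every fit without 1 array. Thrsp, a regulator of lipogenesis, was at -0.98 (adjusted p = 0.0407), the glutathione transferase gene Gstp3 at -0.91 (0.0141), the ATP synthase subunit gene Atp5e at -0.88 (0.0377), the ribosomal Rpl37a at -0.88 (0.0441) and the phosphatase gene Lhpp at -0.88 (0.0337). Each call was lost without mutant array 1, rescue array 2 or rescue array 3. Thrsp and Rpl37a also lost it without mutant array 2 or 3, Thrsp without wild-type array 2, and Atp5e and Lhpp without mutant array 3. With a trended and robust prior only Gstp3 of these 5 was called, and with all probe sets in 1 fit none was. Without single arrays adjusted p reached 0.123 for Thrsp (-1.28 to -0.68), 0.0619 for Gstp3 (-1.10 to -0.72), 0.125 for Atp5e (-1.14 to -0.67), 0.14 for Rpl37a (-1.12 to -0.67) and 0.117 for Lhpp (-1.07 to -0.69).

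**Figure D4:**
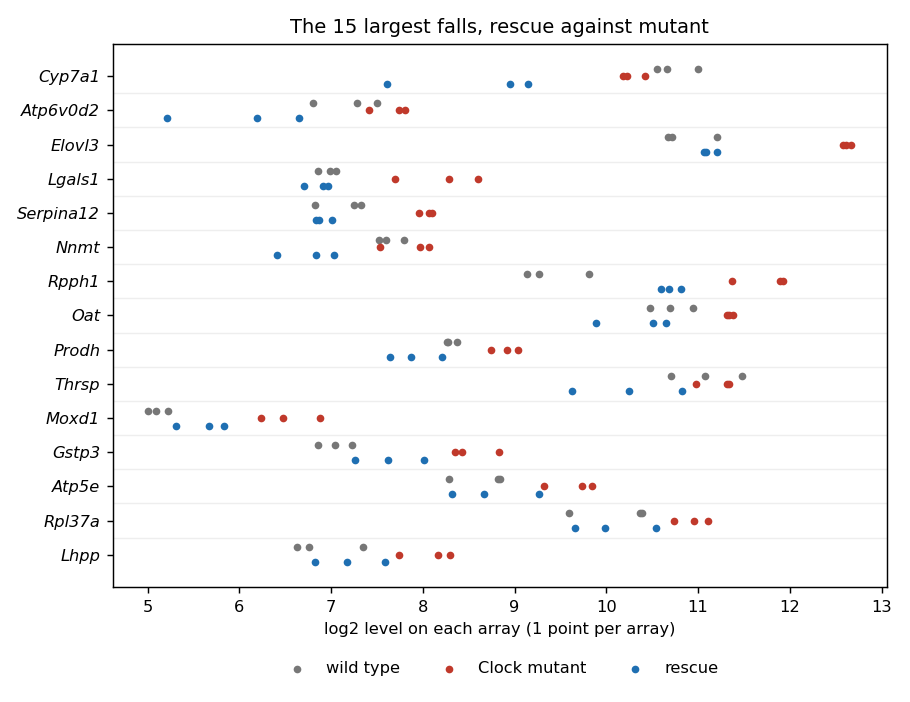
Log2 level on each array (1 point per array) for the 15 genes with the largest falls among called genes without overlap, from Cyp7a1 at the top to Lhpp. Blue rescue points lie left of red mutant points in each row; for Cyp7a1, Atp6v0d2, Nnmt and Prodh they also lie left of the grey wild-type points.

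Genes of amino acid breakdown fell at several steps. In the list of amino acid breakdown and one-carbon metabolism, 8 of 43 fell (18.6%, against 1.2% of all genes) and none rose, and the median was -0.24. In 20 of the 43 all rescue values lay below all mutant values, against 14.0% of all genes. The falling genes numbered 4 to 6 in the 9 fits without 1 array, and 4 of them were called in every such fit.

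Those 4 act in different routes. Prodh, the first enzyme of proline breakdown, was at 8.92, 9.04 and 8.75 in mutant, 8.21, 7.64 and 7.87 in rescue and 8.37, 8.27 and 8.27 in wild type (-1.0 ± 0.14, adjusted p = 0.00217). Oat, ornithine aminotransferase, was at 11.34, 11.32 and 11.38 in mutant and 10.51, 9.89 and 10.65 in rescue (-1.0 ± 0.17, adjusted p = 0.00839), with wild type at 10.47 to 10.94. Gnmt, the glycine methyltransferase that uses up S-adenosylmethionine, fell by 0.78 ± 0.13 (adjusted p = 0.00839), and the alanine aminotransferase gene Gpt also by 0.78 (adjusted p = 0.00974). The urea cycle gene Asl fell by 0.58 ± 0.13 (adjusted p = 0.0267), a call that was lost without mutant array 1 or 2 or rescue array 2 or 3 (-0.70 to -0.45, adjusted p up to 0.0979).

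In glucose and glycogen metabolism 1 of 29 rose (Pfkfb3) and 3 fell, with a median of -0.23. These were 3.45% and 10.3%, against 2.61% and 1.2% of all genes. Pdk4, the kinase that shuts pyruvate dehydrogenase, was at 9.76, 9.69 and 9.65 in mutant, 8.93, 8.92 and 9.01 in rescue and 9.01, 9.04 and 9.46 in wild type, a fall of 0.75 ± 0.12 (adjusted p = 0.00719) with no overlap. The gluconeogenic genes Pcx (-0.51, adjusted p = 0.0211) and Fbp1 (-0.54, adjusted p = 0.0444) fell too. Pcx was not called without any 1 mutant array or rescue array 2 (adjusted p up to 0.0759). Fbp1 was called in 1 of the 9 fits, that without rescue array 1 (-0.67 to -0.36 over the fits, adjusted p up to 0.125). In insulin signalling 2 of 27 rose, Rictor (0.40) and Trib1 (0.39), and neither was called in any fit without 1 array (adjusted p up to 0.12 and 0.156).

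A few lipid genes were called, around the droplet and in synthesis. Among genes of the lipid droplet, uptake and PPARG targets 4 of 27 fell and 1 rose (14.8% and 3.7%, against 1.2% and 2.61% of all genes). The list median was -0.23, and over the 9 fits 2 to 4 fell. Besides Lgals1, the droplet coat gene Plin4 fell by 0.53 ± 0.09 (adjusted p = 0.00987), from 6.48, 6.48 and 6.53 to 5.98, 5.91 and 6.01. Fitm1, which helps droplets form, fell by 0.64 ± 0.12 (adjusted p = 0.0139; not called without mutant array 1 or rescue array 2, up to 0.0575). The fatty acid binding protein gene Fabp4 rose by 0.52 ± 0.12 (adjusted p = 0.0333; not called without any 1 of the 6 rescue and mutant arrays, up to 0.102).

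In fatty acid and triglyceride synthesis 1 of 28 rose and 2 fell (3.57% and 7.14%, against 2.61% and 1.2% of all genes). None of these calls was made in all 9 fits without 1 array. Gpat4, which starts triglyceride assembly, fell by 0.68 ± 0.13 (adjusted p = 0.0139), and not without mutant array 1 or rescue array 2 or 3 (-0.80 to -0.58, up to 0.062). Elovl2, of polyunsaturated fatty acid elongation, rose by 0.46 (adjusted p = 0.0417), a call made in 1 of the 9 fits (without rescue array 2). Of 30 genes of fatty acid oxidation and PPARA targets 1 fell (Pdk4) and 1 rose, Acot1, an acyl-CoA thioesterase (0.67 ± 0.12, adjusted p = 0.0119; 0.0551 without rescue array 3). None of 20 cholesterol synthesis genes was called. Mvd had the smallest p there (-0.42, adjusted p = 0.0519). Of 22 genes of phospholipid and choline metabolism none was called either, and Pemt was at -0.64 (adjusted p = 0.0613).

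Of 27 bile acid genes, a list without Slc10a2 and Cyp39a1, only Cyp7a1 was called. Of 22 lipoprotein genes only Apoa5, which promotes clearance of triglyceride, fell (-0.50, adjusted p = 0.0266; not called without any 1 mutant array or rescue array 2 or 3, up to 0.0896). Alas1 was the only gene called among 23 of heme synthesis and breakdown (median -0.15). All rescue values lay below all mutant values for 6 of the 23 and above for 4, against 14.0% and 11.8% of all genes. Nnmt was the only gene called among 31 of NAD synthesis, salvage and use (3.23%, against 3.81% of all genes). There, rescue lay wholly below mutant for 9 genes and wholly above for 2. Of 25 iron genes only Bmpr1a, a receptor upstream of hepcidin, rose (0.57 ± 0.11, adjusted p = 0.0138; 0.0604 without rescue array 3).

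In purine and pyrimidine metabolism 2 of 36 fell and 1 rose (5.56% and 2.78%, against 1.2% and 2.61% of all genes). Adssl1, of AMP synthesis, fell by 0.72 ± 0.11 (adjusted p = 0.00677), from 6.98 to 7.27 in mutant to 6.31 to 6.58 in rescue. Upp2, a uridine phosphorylase, was at 10.62, 10.58 and 10.38 in mutant, 9.50, 9.77 and 10.19 in rescue and 11.65, 11.46 and 11.46 in wild type. Its fall of 0.71 ± 0.15 (adjusted p = 0.0221) led away from wild type, and was not called without mutant array 1 or 2 or rescue array 1 or 2 (-0.89 to -0.55, up to 0.0791). Ctps2, of CTP synthesis, rose by 0.48 (adjusted p = 0.0229; not called without any 1 of the 6 rescue and mutant arrays, up to 0.0836).

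Some detoxification genes rose, and the medians of the detoxification lists ran from -0.03 to 0.05. Of all genes 2.61% rose and 1.2% fell. Among conjugation enzymes 5 of 42 rose and 2 fell (11.9% and 4.76%), and without mutant array 1 or 3 or rescue array 2 or 3 it was 3 up and 1 down. Gsta4, a glutathione transferase for lipid aldehydes, was at 10.29, 10.38 and 10.42 in mutant, 11.15, 11.23 and 11.09 in rescue and 11.54, 11.17 and 11.37 in wild type (0.79 ± 0.11, adjusted p = 0.00248). Ugt2b35, a glucuronosyltransferase, was at 7.99, 7.83 and 8.19 in mutant and 8.85, 8.76 and 8.70 in rescue (0.76 ± 0.11, adjusted p = 0.00342), with wild type at 8.34 to 8.44.

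Of 84 cytochrome P450 genes 7 rose and 2 fell (8.33% and 2.38%, against 2.61% and 1.2% of all genes). All rescue values lay above all mutant values for 14 of the 84 and below for 17, against 11.8% and 14.0% of all genes. The rises were 2 without mutant array 1 or rescue array 2 or 3, 3 without mutant array 2, and 4 without mutant array 3 or rescue array 1. Cyp39a1, an oxysterol hydroxylase, rose by 1.0 ± 0.18 (adjusted p = 0.0125), to 8.63, 8.41 and 8.48 from 7.6, 7.54 and 7.39, with wild type at 7.80, 8.70 and 8.64. Of 30 drug-metabolising enzymes and their regulators 3 rose and none fell, these being Cyp2b9, Cyp39a1 and Cyp2c54 (0.49, adjusted p = 0.0333; not called without any 1 of the 6 rescue and mutant arrays, up to 0.12). Of 16 carboxylesterases 2 rose (12.5%), Ces1g and Ces1d (0.38, adjusted p = 0.0488). Ces1d was called in none of the 9 fits (adjusted p up to 0.13). Several of these genes have near-identical neighbours (Ces1, Cyp2b, Cyp2c, Cyp4a, Ugt2b, Gst, Nat8 and Ifi200 families), whose RNA may bind the same probes, so which copy changed is uncertain.

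Of 23 NRF2 targets and glutathione synthesis genes 3 rose and 1 fell, and none was called in every fit. Gclc, which limits glutathione synthesis, was at 11.22, 11.16 and 11.19 in mutant, 11.66, 11.65 and 11.82 in rescue and 11.33, 11.17 and 11.04 in wild type. Its rise of 0.52 ± 0.11 (adjusted p = 0.0201) was not called without any 1 mutant array or rescue array 2 or 3 (0.46 to 0.54, up to 0.0829). Akr1b8 (0.53) and Gsr (0.40) rose and the glutathione peroxidase gene Gpx4 fell (-0.43). These 3 were called in 5, 3 and 2 of the 9 fits, with adjusted p up to 0.106, 0.106 and 0.139.

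Among 48 ABC transporters 5 rose and 1 fell (10.4% and 2.08%, against 2.61% and 1.2% of all genes). Beside Abcb1a, which was called in every fit, the urate and drug pump gene Abcg2 rose by 0.66 ± 0.14 (adjusted p = 0.0198; not called without mutant array 2 or rescue array 2, up to 0.0708) and Abca8a by 0.59 (0.0167; not without mutant array 1 or 2 or rescue array 2 or 3, up to 0.0649). Abca3 fell by 0.50 (0.0249; called in 4 of the 9 fits, up to 0.0881). The number of ABC transporters that rose was 1 without mutant array 2 or rescue array 2, 2 without mutant array 1 or rescue array 3, and 3 without rescue array 1 or wild-type array 2.

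Of 325 solute carriers outside the mitochondrial family 10 rose (3.08%) and 8 fell (2.46%), against 2.61% and 1.2% of all genes (2 to 10 up and 1 to 7 down over the 9 fits). The zinc importer gene Slc39a10 rose by 0.81 ± 0.13 (adjusted p = 0.00719) and the bile acid transporter gene Slc10a2 by 0.69 ± 0.13 (adjusted p = 0.012), to 7.77, 7.39 and 7.38 from 6.99, 6.75 and 6.75. Slc4a11 fell by 0.62 ± 0.10 (adjusted p = 0.00839). Slc33a1, which carries acetyl-CoA into the endoplasmic reticulum, rose by 0.51 (adjusted p = 0.0152; not called without mutant array 1 or rescue array 3, up to 0.0619). Of 46 mitochondrial carriers 2 rose and 1 fell. They were Slc25a4 (0.66, called in 6 of 9 fits), Slc25a24 (0.45, in 2) and Slc25a10 (-0.58, in 4), with adjusted p up to 0.0604, 0.148 and 0.102.

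In a list of 23 genes of DNA sensing, which holds sensors and other genes such as Sting1, 4 rose and none fell (17.4%, against 2.61% of all genes). The median was -0.09, and 8 of the 23 had all rescue values below all mutant values, against 14.0% of all genes. Over the 9 fits 2 to 4 rose. Aim2, the inflammasome sensor of cytosolic DNA, was at 6.26, 6.01 and 5.90 in mutant, 6.71, 6.97 and 6.81 in rescue and 7.32, 6.78 and 6.91 in wild type (0.77 ± 0.14, adjusted p = 0.0125; 0.0529 without rescue array 2). Ifi203, a neighbour of Ifi205 and Aim2 in the same family, was at 8.20, 8.24 and 8.16 in mutant, 9.07, 8.78 and 8.93 in rescue and 9.17, 8.91 and 9.48 in wild type (0.72 ± 0.13, adjusted p = 0.0126). The 4 rises of the list also include Ifi205, given above, and the caspase gene Casp4, which is not taken here as a DNA sensor. Casp4 rose by 0.60 (adjusted p = 0.0468). It was called in 3 of the 9 fits (0.45 to 0.79, up to 0.147).

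Of 40 interferon-stimulated genes none rose and 3 fell (7.5% fell, against 1.2% of all genes), with a median of -0.09. Ifi27 fell by 0.71 ± 0.12 (adjusted p = 0.00912), from 9.79, 9.66 and 9.65 to 9.21, 8.80 and 8.95. Bst2, which tethers virus particles, fell by 0.72 (adjusted p = 0.033; not called without mutant array 1 or 2 or rescue array 2 or 3, up to 0.112) and the immunoproteasome gene Psmb9 by 0.48 (0.0494; called in 1 of the 9 fits, that without mutant array 2, up to 0.162).

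Among 33 cytokines, chemokines and adhesion molecules none was called by limma, and Vcam1 had the smallest p (0.38, adjusted p = 0.0811). Of 31 acute phase genes 1 fell, C4b (-0.48, adjusted p = 0.0326; called in 4 of the 9 fits, up to 0.104). Of 44 complement and coagulation genes 3 rose and 2 fell (6.82% and 4.55%, against 2.61% and 1.2% of all genes). C6, of the membrane attack complex, was at 9.58, 9.37 and 9.67 in mutant, 10.13, 10.41 and 10.34 in rescue and 10.12, 10.08 and 10.40 in wild type (0.76 ± 0.12, adjusted p = 0.00737). The factor VIII gene F8 rose by 0.55 (adjusted p = 0.0128; 0.0574 without rescue array 3) and the factor XI gene F11 by 0.53 (0.013; not called without mutant array 1 or rescue array 3, up to 0.0551).

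Markers of other liver cells were measured beside these changes. Of 22 Kupffer cell and macrophage markers 1 rose and 1 fell (4.55% each, against 2.61% and 1.2% of all genes), with a median of 0.16. Their average level was 6.58 to 6.69 in mutant, 6.68 to 6.91 in rescue and 7.09 to 7.54 in wild type. Vsig4, the complement receptor of Kupffer cells, was at 9.02, 9.15 and 9.29 in mutant, 10.30, 10.01 and 10.44 in rescue and 11.51, 11.16 and 11.20 in wild type. The groups did not overlap, and the rise was 1.10 ± 0.13 (adjusted p = 0.00105). Mpeg1, which encodes perforin-2 of macrophages, fell by 0.63 ± 0.13 (adjusted p = 0.0199) to under wild type as well, and was not called without mutant array 1 or rescue array 2 or 3 (up to 0.0785).

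Of 17 lymphocyte markers only Ptprc rose, and the list averaged 5.14 to 5.36 in mutant and 5.28 to 5.39 in rescue. Of 13 neutrophil markers none was called (average 4.82 to 4.94 and 4.64 to 4.91; S100a8 at -0.28, adjusted p = 0.226). The part of leukocyte number in the rises of Ptprc, Gpr65, Lilr4b, Ifi205 and Aim2 was not tested.

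Some endothelial and stellate cell markers were higher in rescue than in mutant, and others were not. Of 22 endothelial markers 4 rose and none fell (18.2% and 0%, against 2.61% and 1.2% of all genes), with a median of 0.29. Tie1, Stab1, Vwf, Egfl7 and Wnt2 lay between -0.18 and -0.03. All rescue values lay above all mutant values for 12 of the 22, against 11.8% of all genes. The list averaged 7.24 to 7.27 in mutant, 7.63, 7.37 and 7.57 in rescue and 7.68 to 7.80 in wild type. The mucin gene Emcn (0.51), the phosphatase gene Ptprb (0.49), the VEGF receptor gene Kdr (0.45) and the mannose receptor gene Mrc1 (0.50) rose, with adjusted p of 0.0211, 0.0218, 0.0344 and 0.0488. None was called in every fit. The endothelial count was 0 without mutant array 1, rescue array 1 or rescue array 3, 1 without mutant array 2, 2 without mutant array 3 and 6 without rescue array 2.

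Of 22 stellate cell and fibroblast markers 4 rose and none fell (18.2% and 0%, against 2.61% and 1.2% of all genes), with a median of 0.03. Ngfr, Des, Col1a1, Col1a2, Col3a1, Col4a1, Colec11, Hand2, Nes and Timp1 lay between -0.13 and -0.01. The pericyte gene Rgs5 rose by 0.57, vimentin (Vim) by 0.49, the retinol esterase gene Lrat by 0.62 and decorin (Dcn) by 0.38 (adjusted p = 0.0194, 0.0204, 0.0368 and 0.0488). None of these 4 was called in every fit without 1 array. The count was 0 without mutant array 1 or rescue array 1 or 2, 1 without mutant array 2, and 2 without mutant array 3 or rescue array 3. Of 44 collagen chains none rose and 1 fell, Col6a5 (-0.47, called in 2 of the 9 fits). Bile duct (8 measured), red cell (2) and exocrine pancreas (10) markers had no call, with Tspan8 at 0.57 (adjusted p = 0.0598), Alas2 at -0.24 (0.212) and Cela3b at -0.39 (0.134). Of 8 adipocyte markers Fabp4 rose.

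Genes of both ends of the liver lobule changed in both directions. Of 24 pericentral and WNT targets 3 fell and 1 rose (12.5% and 4.17%, median -0.19). Of 21 periportal genes 3 fell and 1 rose (14.3% and 4.76%, median 0.02), against 1.2% and 2.61% of all genes. Both rises, 1 pericentral fall and 0 periportal falls were called in all 9 fits without 1 array. Avpr1a, the vasopressin receptor of pericentral hepatocytes, was at 8.70, 9.05 and 8.82 in mutant, 10.02, 9.93 and 9.68 in rescue and 8.61, 9.26 and 8.78 in wild type. It rose by 1.02 ± 0.16 (adjusted p = 0.00486), above both other groups. The periportal Cdh1, which encodes E-cadherin, was at 7.99, 7.94 and 7.95 in mutant, 8.98, 8.96 and 8.97 in rescue and 8.45, 8.24 and 8.26 in wild type (1.01 ± 0.10, adjusted p = 0.000195).

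The falling zonal genes were Oat, Lhpp and the glutamate transporter gene Slc1a2 (-0.43, adjusted p = 0.0493) on the pericentral side, and Aldh1b1 (-0.57, adjusted p = 0.0171), Asl and Fbp1 on the periportal side. Slc1a2 was called in none of the 9 fits (up to 0.149), and Aldh1b1 not without mutant array 1 or rescue array 2 or 3 (up to 0.0744). Of 11 aquaporins none was called (Aqp12 at -0.27, adjusted p = 0.206).

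Of 17 growth hormone genes 17.6% were called and of 32 growth factor and receptor genes 3.12%, against 3.81% of all genes. Erbb4, a receptor for neuregulins, was at 7.55, 7.66 and 7.43 in mutant, 6.71, 6.76 and 6.78 in rescue and 6.91, 7.12 and 7.10 in wild type. It fell by 0.79 ± 0.10 (adjusted p = 0.00149) and was the only one of 32 growth factors, ErbB and neurotrophin receptors to be called. Igfals, which stabilises circulating IGF1, was at 7.6, 7.59 and 7.70 in mutant and 7.08, 7.09 and 7.13 in rescue, under both other groups (-0.53 ± 0.10, adjusted p = 0.0125; wild type 7.50 to 7.68). In the same list of 17 growth hormone genes Igfbp3 (0.62, adjusted p = 0.0195) and the kinase gene Jak2 (0.38, adjusted p = 0.0395) rose. Igfbp3 was not called without mutant array 1 or 2 or rescue array 2 (up to 0.076), and Jak2 was called in 1 of the 9 fits, that without wild-type array 3 (up to 0.11).

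Of 19 male-biased liver genes 3 rose and 2 fell (15.8% and 10.5%), and of 20 female-biased genes 2 rose and none fell (10.0% and 0%). Of all genes 2.61% rose and 1.2% fell. The male-biased Elovl3 and Moxd1 fell while Susd4 (0.64 ± 0.11, adjusted p = 0.00991) and Cyp4a12a (0.56, adjusted p = 0.0141) rose. Cyp4a12a was not called without mutant array 1 or rescue array 2 or 3 (up to 0.0625). With Cyp2b9 the female-biased Fmo2 rose by 0.59 (adjusted p = 0.0363; called in 4 of the 9 fits, up to 0.124). Of 35 nuclear receptors outside the clock only the mineralocorticoid receptor gene Nr3c2 rose (0.56, adjusted p = 0.0229; called in 5 of the 9 fits, up to 0.0953).

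Of 25 glucocorticoid receptor and target genes 1 rose and 2 fell (4.0% and 8.0%, against 2.61% and 1.2% of all genes). Hsd11b1, which regenerates active glucocorticoid, rose by 0.66 ± 0.13 (adjusted p = 0.0191; not called without mutant array 1 or 2, up to 0.0621). The targets Klf15 (-0.53, adjusted p = 0.032) and Tsc22d3 (-0.48, adjusted p = 0.0326) fell, with calls in 3 and 5 of the 9 fits (up to 0.0925 and 0.106). Klf15 was also below wild type (-0.51, adjusted p = 0.041).

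The stress lists given here had 2.94% to 4.55% of members called, near the 3.81% of all genes. In the unfolded protein and integrated stress response 1 of 34 fell, Herpud1 (-0.51, adjusted p = 0.0487; called in 2 of the 9 fits, up to 0.136). Of 22 heat shock chaperones 1 rose, Hspb1 (0.52, adjusted p = 0.041; in 4 fits, up to 0.144). Gadd45a rose by 0.70 (adjusted p = 0.0373; in 4 fits, up to 0.128), the only call among 34 immediate early genes and among 24 genes of DNA damage and p53. Of 43 cell cycle and replication genes Wee1 rose and the helicase gene Mcm6 fell (-0.71 ± 0.10, adjusted p = 0.00424), from 6.70, 6.81 and 6.89 to 6.25, 5.98 and 6.05.

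Genes for ribosomes and the respiratory chain fell in part. Of 60 cytosolic ribosomal proteins 8 fell and none rose (13.3% fell, against 1.2% of all genes), with a median of -0.33. For 27 all rescue values were below all mutant values, against 14.0% of all genes. The average level of all 60 was 9.41 to 9.51 in mutant, 9.36, 8.97 and 9.09 in rescue and 9.02 to 9.22 in wild type. Rpl22 fell by 0.64 ± 0.12 (adjusted p = 0.0119), Rpl36 by 0.84 ± 0.16 (0.0159), Rpl12 by 0.60 (0.0211) and Rplp1 by 0.77 (0.0225). None of the 8 was called in every fit. The count was 17 without rescue array 1, 2 without mutant array 2 or 3, and 0 without mutant array 1 or rescue array 2 or 3.

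Of 79 respiratory chain and ATP synthase subunits 7 fell and none rose (8.86% fell, against 1.2% of all genes), with a median of -0.29. The complex I genes Ndufb7 (-0.77), Ndufa8 (-0.48), Ndufa3 (-0.63) and Ndufa5 (-0.44) fell with adjusted p of 0.0206, 0.0265, 0.0273 and 0.0328. The average level was 9.41, 9.23 and 9.37 in mutant and 9.23, 8.93 and 9.01 in rescue. The count was 20 without rescue array 1, 1 without mutant array 3, and 0 without mutant array 1 or rescue array 2 or 3. With the trend on gene span removed it was 2, and that of the cytosolic ribosomal proteins 3.

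Among mitochondrial ribosomal proteins 3 of 77 fell (3.9%, against 1.2% of all genes), Mrps28 at -0.54, Mrps34 at -0.55 and Mrpl23 at -0.81. Among proteasome subunits 3 of 39 fell (7.69%), Psmb4 at -0.51, Psmb5 at -0.49 and Psmb9. The medians of the 2 lists were -0.14 and -0.12. Both counts were 0 without mutant array 1, mutant array 3, or rescue array 2 or 3, and mitochondrial ribosomal proteins had 5 without rescue array 1 and 1 without wild-type array 1. With the span trend removed no proteasome subunit was called.

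Zinc finger genes went the other way. Of 342 genes named Zfp, 26 rose and none fell (7.6%, against 2.61% of all genes), with a median of 0.07, and 79 had all rescue values above all mutant values, against 11.8% of all genes. Zfp518a was at 5.85, 5.64 and 5.95 in mutant, 6.90, 6.72 and 6.82 in rescue and 6.78, 6.71 and 6.94 in wild type (1.0 ± 0.11, adjusted p = 0.000599). Zfp455 rose by 1.03 ± 0.13 (adjusted p = 0.00109), and Zfp654 and Zfp563 by 0.61 each (0.00839 and 0.0109). Their zinc finger repeats resemble each other, so probes may be shared. The rises numbered 7 to 15 without any 1 rescue or mutant array and 37 with median centring.

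Direction also went with the length of a gene in the genome. Across 19852 genes with a known span, which are not independent, Spearman's rho between span and the rescue minus mutant difference was 0.216. In the fifth with the shortest spans (median 1557 bases) 34 genes rose and 76 fell. In the fifth with the longest (median 111322 bases) 212 rose and 36 fell. The median span was 44070 bases for genes that rose, 9325 for those that fell and 17739 for all. Cytosolic ribosomal protein genes have a median span of 3157 bases, and the Zfp genes 18012. With this trend removed 499 genes rose and 133 fell, so the share of rises among calls was 79.0% in place of 68.5%. RNA quality was not measured here, and its part in the trend was not tested.

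Of the remaining lists, serpins had 2 of 47 up (Serpinb6b at 0.63 and Serpina7 at 0.53) and 2 down (Serpina12, and Serpinb1a at -0.73). Each count was 4.26% of the list, against 2.61% up and 1.2% down over all genes. All but Serpina12 lost their call without mutant array 1 or rescue array 2, with adjusted p up to 0.0587, 0.0708 and 0.137; Serpina7 also lost it without mutant array 2, and Serpinb1a without mutant array 3, rescue array 3 or wild-type array 3. Among 54 ubiquitin-specific proteases Usp9x rose (0.42, adjusted p = 0.0392; in 3 of the 9 fits). Of 9 histone genes none was called, and H1f7 was at -0.21 (adjusted p = 0.287). Of 1015 olfactory receptor genes, which liver is not known to express, 1 rose and 5 fell.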

How the data were processed

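Liver RNA of 9 samples was hybridised to Affymetrix arrays, 1 per sample. The deposited values are log2 levels per probe set, made by the authors with RMA in Affymetrix Expression Console, per the submitters' processing notes, which name no version. RMA corrects background, equalises the arrays' distributions and summarises probes, so dim genes differ less than they should and a change shared by most genes may be lost. A highest value of 13.9 shows that the base is 2.

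Of 35556 probe sets, 21789 had 1 gene symbol in the platform annotation, 1621 several and 12146 none. The probe set of highest mean was kept for 999 genes with several, which left 19938 genes. Groups came from the sample labels. All 9 arrays were fitted in 1 model with limma 3.58.1 in R 4.3.3 with statmod 1.5.0 (tables with pandas 2.3.3 and figures with matplotlib 3.10.9, Python 3.11.15), with 6 residual and 8.475 prior degrees of freedom, no covariate, and adjustment over 19938 genes. The number of arrays limits the precision.

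There were 64 gene lists, 50 by function and 14 by symbol; 1084 of their 1202 written symbols were measured, 6 through a synonym in the RefSeq gene table. Lists were described by counts and medians, with no set test. The rule for genes named here takes Clock, all clock list members, the 15 largest called rises and 15 largest called falls without overlap of the 3 rescue and 3 mutant values (predicted genes and olfactory and vomeronasal receptors left out), and in each other list up to 4 called members of smallest p, or the 1 of smallest p where none was called. A gene was taken as dim where its group mean lay below the median of 1015 olfactory receptor genes on the same arrays. The comparison, members and lists were chosen with earlier results of these data known. The model was tested on simulated data. Replicate numbers shared by the groups were tried as a block: same-numbered rescue and mutant arrays correlated in their deviations at 0.183, 0.105 and -0.0651, so the numbers were not taken to pair the samples. Alternatives were array weights, the mean of all probe sets, median centring, quantile normalization repeated, only the 6 arrays compared, a trended and robust prior, no dim genes, the trend on gene span removed (loess of each array on log span) and leaving out each array; a fit of all probe sets was added after the data were seen.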

Additional observations from a re-analysis of the deposited data

How the results depend on the processing

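The count of 759 called genes (520 up, 239 down) moved by over 1.5 times with array weights (1334 in all, 589 down), a trended and robust prior (1210; 793 up, 417 down), without the dimmest 40% of genes (1178 of 11963 tested; 405 down), and with all probe sets in 1 fit (88; 67 up, 21 down), the last chosen after the data were seen. Falls alone moved with the span trend removed (133), with quantile normalization repeated (370) and with median centring (126). Leaving out 1 array gave 200 to 692 calls, 148 to 469 up and 46 to 257 down. The 42 genes changed at least 2-fold became 24 with all probe sets. The cause of these differences was not tested. With the replicate block 931 genes were called (579 up, 352 down); the correlations of same-numbered arrays do not show that the numbers pair the samples. Rises were 68.5% of calls, 86.1% with median centring, 79.0% with the span trend removed, 76.1% with all probe sets, 55.8% with array weights, and 52.9% without rescue array 1. Among 3456 values of single named genes over the alternatives, 579 called ones lost their call, 48 gained one and 0 changed direction after being called. Signal near the olfactory receptor median limits what can be read for dim genes: 29 called genes lay there in the lower group.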
